A study of Triticum aestivum with 12 samples.

Results

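A set of 164 wheat genes was at or near zero in grains at 5 days after flowering (DAF) and was read in every grain sample at 14 DAF. The genes were taken from 107891 genes with TraesCS identifiers (120744 features in all) and selected on measured counts by 3 limits. Each had at most 3 counts in each of the 6 libraries of 5 DAF, at least 1 CPM (the per-million share of the column total) in each of the 6 libraries of 14 DAF, and a mean of at most 300 CPM over the libraries of 14 DAF. The 200 genes with the highest mean were to be kept, but only 164 genes met the limits, so all of them are members. The stage difference chose the members, and it is therefore described below without a test.

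RNA was sequenced from developing grains of 2 hard red winter wheats, the cultivars TAM 112 and TAM 111, sampled at 14 and 5 DAF with 3 libraries in each of the 4 groups. No treatment or genetic modification is named in the labels for any group, and in the labels the groups differ by cultivar and stage only. The plants were grown in the field, and the labels name no plots or batches. Each library held poly-A RNA from several whole grains of 1 inflorescence, and the 3 samples of highest quality in each group were sequenced. The comparison of cultivars at 14 DAF asks whether the late genes had reached the same level in both. The choice of members did not use the difference between the cultivars, but it did use the values at 14 DAF, through limits that were the same for all 6 libraries. A gene under 1 CPM in any of them could not be a member, which bounds how low a member can be in either cultivar, and 223 genes met the limits without replicate 3 of TAM 112 at 14 DAF.

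A wheat grain passes in this period from the division and cellularisation of the endosperm to the filling phase, in which the starchy endosperm deposits starch and storage proteins, while the aleurone and the embryo differentiate. Genes that are silent in the early grain and transcribed during filling are typical of storage and of maturing tissues. Bread wheat carries 3 subgenomes, A, B and D, so most genes occur as homeologs on the chromosomes of a homoeologous group. The whole grain was sampled, so fewer cells of a type and less RNA per cell cannot be told apart. The files give the genes by identifier and position (IWGSC RefSeq v1.0) without a description, and the name table used here holds 0 of the TraesCS identifiers. Roles are therefore given only where the study names a gene, and marker genes of endosperm, aleurone and embryo were not looked at here.

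Total counts per library ran from 31916077 to 40464882, and 1 count was worth 0.0231 to 0.0362 CPM after scaling. The TMM scaling factors, which correct for the make-up of a library, at 14 DAF were 1.12 to 1.19 for TAM 112, whereas TAM 111 had 0.767 to 0.872. CPM values below use these factors. The labels do not say that replicates came from separate plants, so p-values measure the spread between these samples only. Replicates of a group differed by more than counting noise in all 12 pairs (chi-square per degree of freedom 14.5 to 52.5). At 5 DAF replicate 3 stood apart in both cultivars. Of 40468 genes that met the limits of 14 DAF, 576 in TAM 112 and 746 in TAM 111 had at most 3 counts in it, against 288 to 478 in the other 4 libraries of 5 DAF. Without both of these libraries 186 genes met the limits, and 62 of the members were called lower in the comparison of cultivars at 14 DAF given below, in place of 46, while the share of all genes called lower was 10.1% in place of 7.45%.

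At 14 DAF the members together reached 2435, 2448 and 1610 CPM in replicates 1, 2 and 3 of TAM 112, against 8549, 8211 and 8295 CPM in those of TAM 111. The groups did not overlap, and replicate 3 of TAM 112 was the lowest of the 6. The mean was 2164 ± 480.1 CPM in TAM 112 and 8352 ± 176.1 CPM in TAM 111 (SD, n = 3 each). As a share of all counts, without scaling, the members took 0.289%, 0.280% and 0.180% in TAM 112 and 0.725%, 0.630% and 0.723% in TAM 111. The order of the cultivars was thus the same with and without the scaling factors. The 10 genes with the highest mean supplied 27.5% to 35.4% of the summed CPM in TAM 112, against 37.5% to 40.6% in TAM 111.

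At 5 DAF the members had 328 counts in all over the 6 libraries. The summed level was 2.83, 2.29 and 0.693 CPM in TAM 112, against 1.29, 1.095 and 0.620 CPM in TAM 111. Replicates 1 and 2 of TAM 112 held most of these traces, 115 and 82 counts from 60 and 50 members, and replicate 3 was lowest in each cultivar. No count was seen in any library of 5 DAF for 62 members, while the highest count was 1 for 35 members, 2 for 38 and 3 for 29. The limit of 3 counts fixes these values, so nothing is read from a cultivar difference at 5 DAF.

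**Figure D1:**
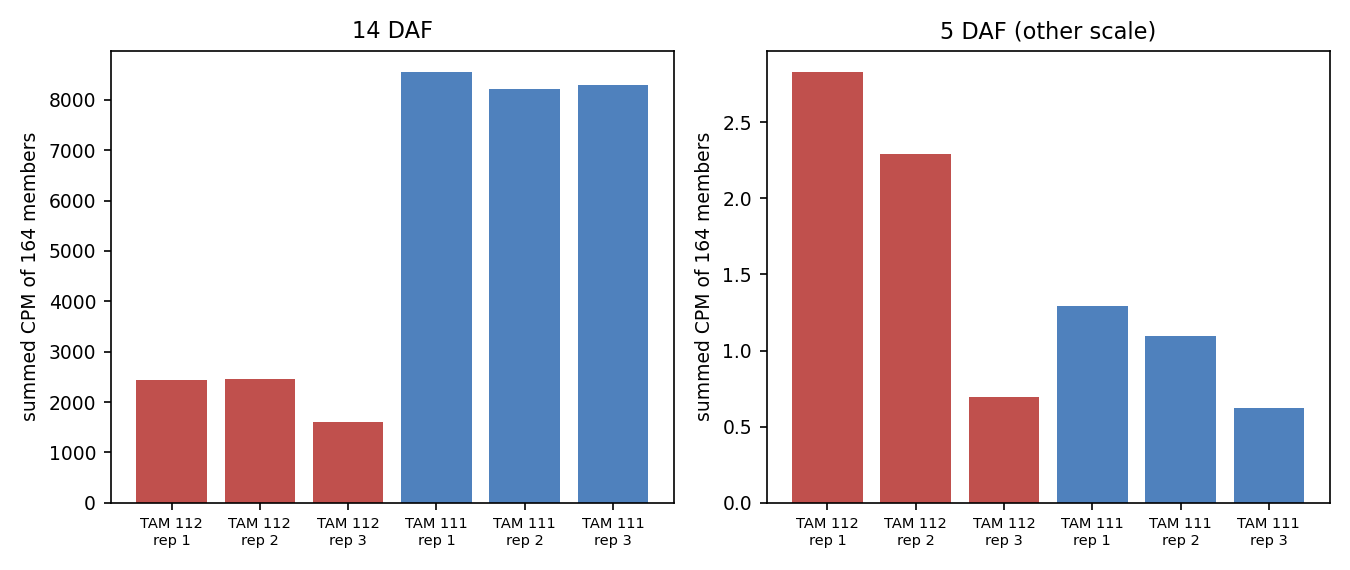
Summed CPM of the 164 members in each library at 14 DAF (left) and at 5 DAF (right, on its own scale), TAM 112 in red and TAM 111 in blue. At 14 DAF the TAM 112 bars reach 1610 to 2448 CPM and the TAM 111 bars 8211 to 8549 CPM, whereas no bar at 5 DAF passes 2.83 CPM.

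The rise of each member is given as a lower bound, with 5 DAF set at the floor of 3 counts per library. The bounds ran from 16.2-fold to 1274-fold in TAM 112 (median 80.7) and from 16.4-fold to 5686-fold in TAM 111 (median 147). A bound of at least 100-fold was reached by 63 members in TAM 112, against 108 in TAM 111. All 164 members were called higher at 14 DAF in each cultivar, as the choice of members requires, beside 11.8% of the 65080 genes tested in TAM 112 and 13.4% in TAM 111, and nothing is read from these counts.

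Most members were read at low or middle levels. Their mean at 14 DAF was 1.50 to 262 CPM with a median of 8.38 CPM. It was 100 CPM or more for 12 members, 10 to 100 CPM for 64, 3 to 10 CPM for 66 and under 3 CPM for 22. Just outside the limit at 5 DAF lay 20 genes with a highest count of 4. Just outside the limit at 14 DAF lay 7 genes at 0.9 to under 1 CPM in their lowest library, while 8 members lay at 1 to 1.1 CPM. A further 4 genes met the other limits but averaged over 300 CPM, among them TraesCS2D02G154300 with a mean of 426.4 CPM, named here after its values were seen.

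The members varied more between the replicates of TAM 112 than between those of TAM 111. The median coefficient of variation was 45.7% in TAM 112 (quartiles 33.5% and 60.2%) and 23.6% in TAM 111 (16.8% and 33.0%). Among 49729 tested TraesCS genes with a mean of at least 1 CPM it was 14.9% in TAM 112 and 14.7% in TAM 111, without matching for level. Replicate 3 of TAM 112 was the lowest of its group for 124 members (75.6%), against 39.7% of those tested genes. In TAM 111, replicate 2 was the lowest for 79 members (48.2%), against 32.4% of the tested genes. What set replicate 3 of TAM 112 apart was not tested.

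More members were called lower in TAM 112 than higher at 14 DAF. In edgeR's quasi-likelihood test over all 65080 genes, 46 of the 164 members were called lower in TAM 112 (28.0%) and 0 higher, where a call needs an absolute log2 fold change over 1 and a Benjamini-Hochberg adjusted p under 0.01. The same calls took 7.45% of all genes tested lower and 7.02% higher (14.5% in either direction). The median log2 fold change, TAM 112 over TAM 111, was -1.26 for the members (quartiles -1.77 and -0.84) and -0.01 for all genes, and it was negative for 153 members and positive for 11. Unadjusted p was under 0.05 for 117 members (71.3%), against 46.3% of all genes tested. DESeq2 called 81 members lower and 0 higher, and 9.9% of all genes lower. Genes that were called higher at 14 DAF in both cultivars and are not members, 4480 in number, had a median of -0.04, with 9.17% called lower and 6.72% higher.

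Without replicate 3 of TAM 112 at 14 DAF, 48 members were called lower, 39 of them among the 46, and 0 higher, and the median was -1.04. The number of calls fell by over 1.5 times without some other libraries of 14 DAF, to 28 without TAM 112 replicate 1 and to 25, 28 and 24 without TAM 111 replicates 1, 2 and 3. The share of all genes called lower fell in the same fits, to 3.79%, 5.44%, 4.07% and 4.57%. Without any scaling factors the median of all genes moved to 0.45, with 2385 genes called lower and 11332 higher, and the members stood at -0.79, with 29 lower and 2 higher.

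By level, of the 54 members with a mean over 20 CPM, 27 were called lower (median log2 fold change -1.92). Between 5 and 20 CPM it was 15 of 57 (-1.25), and under 5 CPM 4 of 53 (-0.92). These counts are a description only. The mean that sets the classes was used by the choice of members and is raised by a high value in either cultivar, and with at least 1 CPM in every library a member of low mean has little room for a large difference. Of the 62 members with no count at 5 DAF, 12 were called lower (median log2 fold change -1.19). Of the 102 with at least 1 count there, 34 were (median -1.34). The choice of members used the counts at 5 DAF, so nothing is read from this split. In CPM with the TMM factors, the values of the cultivars did not overlap for 119 members, 116 lower and 3 higher in TAM 112. Of all genes tested, 28.8% and 27.1% did so (55.9% in either direction). The number of such members depends on the scaling and was not counted without it. All 46 called members were among the 116.

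**Figure D2:**
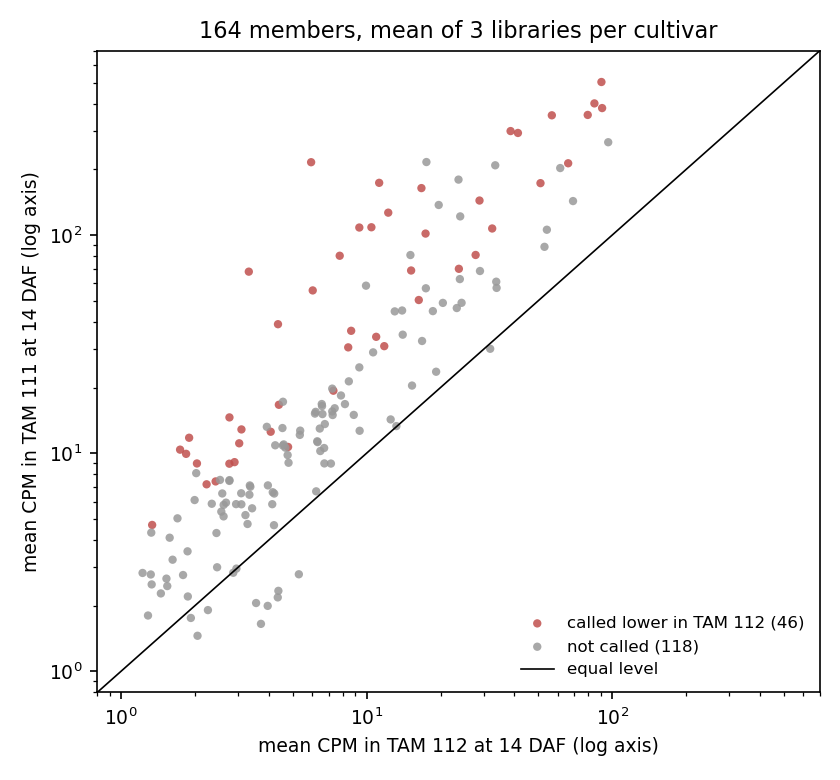
Mean CPM at 14 DAF of the 164 members in TAM 112 (horizontal, log axis) and TAM 111 (vertical, log axis), with 3 libraries behind each mean. The 46 members called lower in TAM 112 are red, the other 118 grey, and 153 members have a negative fitted log2 fold change.

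The gene with the highest mean of all members, TraesCS4D02G351300 (4D:503175796-503177481, plus strand), had 73.6, 161.9 and 35.7 CPM in TAM 112, against 517.8, 445.8 and 546.3 CPM in TAM 111. The groups did not overlap, and replicate 2 stood highest in TAM 112. The log2 fold change was -2.48 ± 0.49 (SE, edgeR adjusted p = 0.00661), and no count was seen at 5 DAF. TraesCS7A02G548100 (7A:722767794-722768819) showed the same order of replicates in TAM 112, with 48.0, 159.1 and 46.8 CPM, against 383.6, 341.0 and 479.9 CPM in TAM 111 (log2 fold change -2.25, edgeR adjusted p = 0.00932). TraesCS5A02G526900 (5A:687655022-687656737) had 46.0, 106.9 and 17.5 CPM in TAM 112 and 374.6, 331.8 and 355.8 CPM in TAM 111 (-2.64, adjusted p = 0.0089). All 3 genes were at 0 in every library of 5 DAF. Their calls were not stable: with 1 library left out in turn, TraesCS4D02G351300 was called in 8 of 12 fits, TraesCS7A02G548100 in 5 and TraesCS5A02G526900 in 7. All 3 calls were lost without TAM 112 replicate 1 and without any of the 3 TAM 111 replicates of 14 DAF, with adjusted p up to 0.0304, 0.0318 and 0.0384 in edgeR.

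TraesCS4B02G076200 and TraesCS4D02G074800 were also among the 10 highest, but were not called. The first had 206.8, 42.9 and 39.3 CPM in TAM 112, against 203.8, 271.2 and 324.6 CPM in TAM 111, and the groups overlapped (adjusted p = 0.0694 by edgeR). The second had 129.9, 25.9 and 28.6 CPM in TAM 112, against 139.9, 213.8 and 254.9 CPM in TAM 111 (adjusted p = 0.0599 by edgeR). In both genes replicate 1 of TAM 112 stood close to the lowest TAM 111 library while replicates 2 and 3 lay far below it. The remaining 5 of the 10 highest were called lower. They included TraesCSU02G032800, which is not placed on a chromosome, with 59.9, 78.2 and 60.5 CPM in TAM 112 and 179.9, 175.5 and 284.7 CPM in TAM 111 (log2 fold change -1.69). TraesCS7A02G070900 had 10.1, 36.6 and 69.1 CPM in TAM 112 and 370.6, 301.3 and 227.4 CPM in TAM 111 (-2.96), and replicate 3 was here the highest in TAM 112. This call was lost without TAM 112 replicate 2 or TAM 111 replicate 1 or 2 at 14 DAF.

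The smallest adjusted p among the members belonged to TraesCS7D02G185500 (7D:138348913-138349966, minus strand). It had 4.17, 3.66 and 2.11 CPM in TAM 112, against 60.4, 56.6 and 87.0 CPM in TAM 111, a log2 fold change of -4.35 ± 0.33 (SE, edgeR adjusted p = 4.11e-06). Every TAM 112 library lay more than an order of magnitude under every TAM 111 library. The next gene on the chromosome, TraesCS7D02G185600, is also a member, named after its values were seen, and averaged 1.89 ± 0.42 CPM in TAM 112 and 11.8 ± 1.89 CPM in TAM 111 (SD, n = 3 each). TraesCS1D02G405600, with 3.04, 11.3 and 19.4 CPM in TAM 112 and 179.5, 205.1 and 136.2 CPM in TAM 111, had a log2 fold change of -3.95. The other members with the largest called differences, on 3B, 5A, 5D and 7A, had log2 fold changes of -3.53 to -3.29.

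In the fit over all 12 libraries no member was called higher in TAM 112. The largest positive log2 fold change was 1.17, for TraesCS6D02G098600 (edgeR adjusted p = 0.0533). The 3 members that were higher in TAM 112 without overlap were TraesCS2A02G076400 (0.99, adjusted p = 0.0294), TraesCS5D02G324300 (0.99, 0.0879) and TraesCS2D02G074000 (0.49, 0.347). The first 3 of these 4 genes were chosen after their values were seen. A fit on only the 6 libraries of 14 DAF called 58 members lower and 1 higher, beside 6165 and 5727 of the 61351 genes tested in it.

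Members lay on every chromosome and were spread over the subgenomes, with 50 on A, 51 on B, 60 on D and 3 unplaced. The shares of 30.5%, 31.1% and 36.6% stood beside 32.8%, 32.8% and 33.4% of the tested genes of at least 1 CPM. Homoeologous groups 1 to 7 held 25, 25, 20, 24, 28, 15 and 24 members. The genes were short and had few exons. The exons of a member summed to a median of 1124 bases, against 1666 bases in the tested genes. The limits in counts and CPM carry no correction for length, so length itself bears on membership. Among the 145 members whose exons do not overlap, 34.5% had 1 exon and 29.0% had 3 or more, against 16.7% and 65.2% of the tested genes. The shortest member had 222 bases of exon, and 13 had under 300.

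Of the members, 23 lay in 10 runs in which each was within 1 Mb of the next. The largest run was on the short arm of 6B, at 43384370 to 44062725, where 5 of 12 TraesCS genes were members over 678 kb. The group 6 short arms are known to carry the alpha-gliadin loci, whose products are storage proteins of the endosperm, but the files do not say what these genes encode. TraesCS6B02G066000 had 1.32, 1.97 and 14.5 CPM in TAM 112, against 220.4, 289.9 and 137.0 CPM in TAM 111, the largest difference of any member (log2 fold change -5.19 ± 0.86, SE, edgeR adjusted p = 0.00165). Its size rested on replicate 3 of TAM 112, without which the log2 fold change was -7.04, and it was -4.71 without replicate 1 and -4.77 without replicate 2. TraesCS6B02G065800 had 2.45, 2.67 and 13.0 CPM in TAM 112 and 45.2, 79.3 and 42.8 CPM in TAM 111 (-3.21, adjusted p = 0.00377), a call that held in 8 of the 12 fits with 1 library left out and was lost without replicate 1 or 2 of TAM 112 or replicate 2 or 3 of TAM 111 at 14 DAF. TraesCS6B02G065536 had 3.84, 6.40 and 35.0 CPM in TAM 112 and 72.3, 116.2 and 54.5 CPM in TAM 111, and was not called (adjusted p = 0.0268). TraesCS6B02G065578 had 2.12, 3.10 and 22.8 CPM in TAM 112 and 20.5, 38.8 and 15.0 CPM in TAM 111, and the groups overlapped. In these 4 genes replicate 3 was the highest of TAM 112 and replicate 2 the highest of TAM 111, whereas replicate 3 of TAM 112 was the lowest for most members. On 6A, TraesCS6A02G049066 and TraesCS6A02G049500 were members, also named after their values were seen, and the 3 genes between them averaged over 300 CPM and had over 3 counts at 5 DAF. Near-identical copies can share reads at such loci, and how reads with several matches were counted is not given in the sources used here, so the split between these genes is uncertain.

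**Figure D3:**
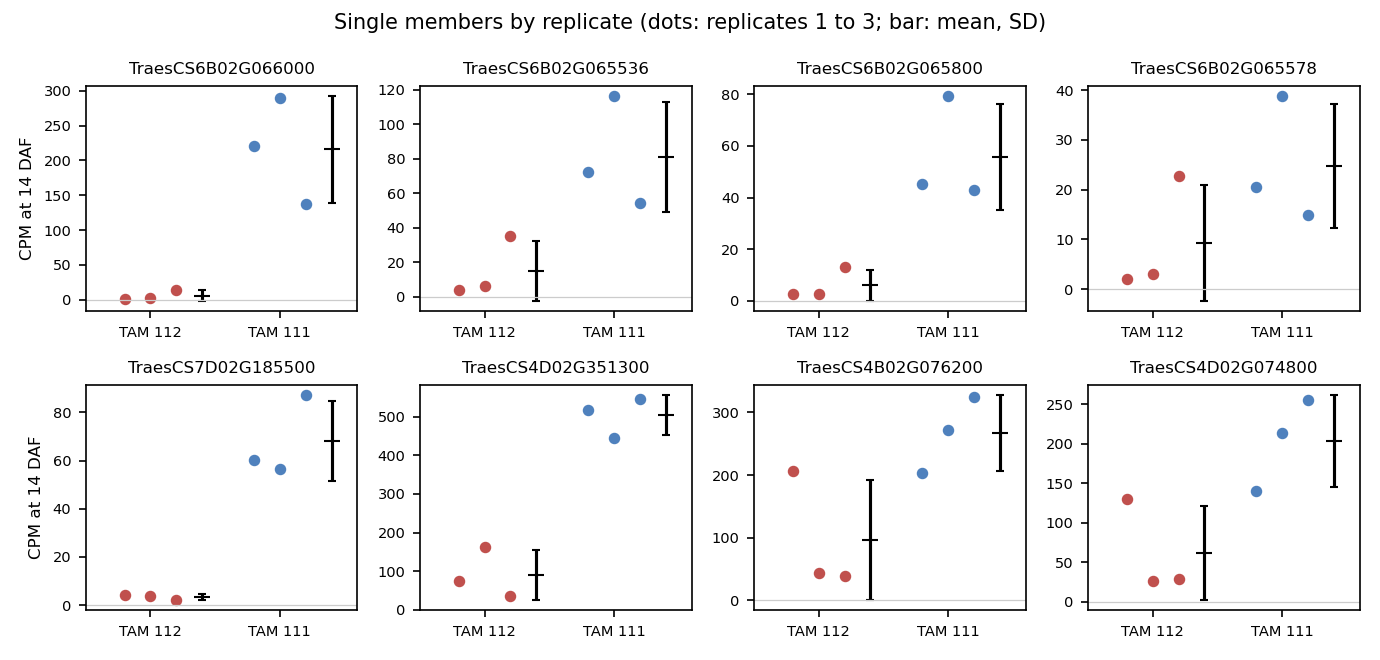
CPM at 14 DAF in each replicate (dots, replicates 1 to 3 from left to right) with the mean and SD (black bar) for 4 genes of the 6B run and 4 other members, TAM 112 in red and TAM 111 in blue, each panel on its own scale. TraesCS6B02G066000 stays at or under 14.5 CPM in TAM 112 while TAM 111 lies between 137.0 and 289.9 CPM, and replicate 1 of TAM 112 stands apart in TraesCS4B02G076200 and TraesCS4D02G074800.

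Pairs of neighbouring genes in all 3 subgenomes of groups 4 and 7 supplied 10 members. On group 4 the pairs were TraesCS4A02G296000 and TraesCS4A02G296100, TraesCS4B02G017500 and TraesCS4B02G017600, and TraesCS4D02G016000 and TraesCS4D02G016100. Each pair is adjacent in the annotation, and the 4D genes lie on opposite strands with an overlap of 267 bases. The library kit was directional, but whether reads were counted by strand is not given in the sources used here. Of these genes TraesCS4B02G017600 is not a member, since it had 7 counts in replicate 3 of TAM 111 at 5 DAF. The internal exons of both 4A genes and of TraesCS4B02G017600 measured 176, 63 and 309 bases, and those of TraesCS4B02G017500 measured 176, 63 and 306 bases. The group 4 and group 7 pairs were chosen for this description after their values were seen.

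All 6 genes of group 4 were called lower in TAM 112. The highest, TraesCS4B02G017500, had 110.2, 94.8 and 68.0 CPM in TAM 112, against 386.3, 410.4 and 350.1 CPM in TAM 111 (log2 fold change -2.07 ± 0.29, SE, edgeR adjusted p = 0.000752). TraesCS4D02G016100 had 87.0, 94.2 and 57.3 CPM in TAM 112 and 342.4, 411.0 and 313.1 CPM in TAM 111 (-2.16). TraesCS4D02G016000 had 37.7, 66.2 and 20.1 CPM in TAM 112 and 308.1, 342.5 and 231.1 CPM in TAM 111 (-2.83), and its call was lost without TAM 112 replicate 1 at 14 DAF (edgeR adjusted p = 0.0109). The 4A genes were the steadiest in TAM 112, and TraesCS4A02G296000 averaged 15.2 ± 2.67 CPM there and 68.8 ± 11.9 CPM in TAM 111 (SD, n = 3 each). Over the 6 genes the log2 fold change ran from -2.83 to -1.56. In TPM, which corrects for length and carries no TMM factor, the cultivars lay closer together than in CPM for these genes. TraesCS4B02G017500 was the highest of the 6 in TPM, at 75.8 ± 21.7 in TAM 112 and 190.2 ± 9.12 in TAM 111 (SD, n = 3 each). TraesCS4A02G296000 was the lowest, at 11.3 ± 2.57 in TAM 112 and 30.4 ± 3.35 in TAM 111.

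On group 7 the pairs were TraesCS7A02G113800 and TraesCS7A02G113900, TraesCS7B02G011500 and TraesCS7B02G011600, and TraesCS7D02G109100 and TraesCS7D02G109200. The first gene of each pair has 1 exon and the second 5, with internal exons of 216, 152 and 280 bases in all 3 subgenomes. TraesCS7D02G109200 is not a member, since it had 6 and 7 counts in replicates 1 and 2 of TAM 112 at 5 DAF. The single-exon genes were called lower in TAM 112 in each subgenome. TraesCS7A02G113800 had 55.2, 52.3 and 45.7 CPM in TAM 112 and 160.2, 169.5 and 189.4 CPM in TAM 111 (log2 fold change -1.76 ± 0.20, SE, edgeR adjusted p = 0.000242), and TraesCS7B02G011500 and TraesCS7D02G109100 had log2 fold changes of -1.72 and -1.63. The 7D call was lost without replicate 2 of TAM 112 or of TAM 111 at 14 DAF. Of the 5-exon genes TraesCS7A02G113900 was called (-1.54, but not without TAM 111 replicate 3 at 14 DAF), while TraesCS7B02G011600 (-1.05, adjusted p = 0.0194) and TraesCS7D02G109200 (-0.79, adjusted p = 0.115) were not. Whether the 2 kinds of gene differ in the size of the cultivar difference was not tested.

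**Figure D4:**
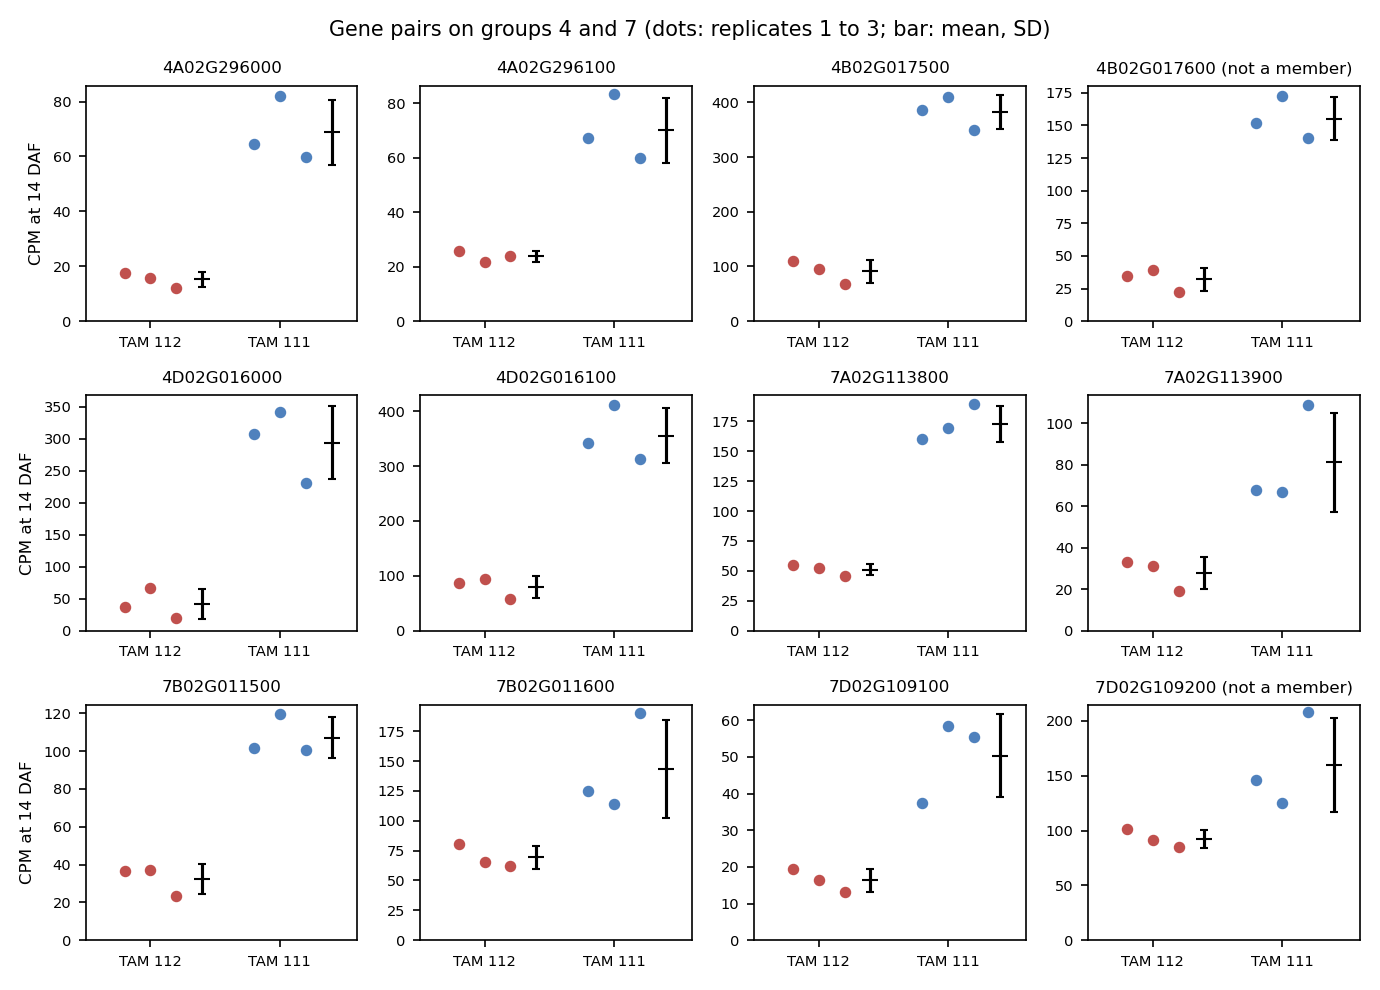
CPM at 14 DAF in each replicate (dots) with the mean and SD (black bar) for the 12 genes of the pairs on groups 4 and 7, TAM 112 in red and TAM 111 in blue, each panel on its own scale. In every panel the 3 TAM 112 libraries lie below the 3 TAM 111 libraries, and TraesCS7D02G109200 has the log2 fold change nearest to 0, at -0.79.

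Exon lengths also linked members to genes that missed the limits. Of the 25 members with at least 4 separate exons, 9 had internal exon lengths equal to those of a gene on another chromosome of the same group and of no gene on another group. These 9 had 14 such partners, of which 12 were not members. At 14 DAF 9 of the 12 reached at least 1 CPM in every library, and it was the limit at 5 DAF that kept these 9 from being members. For example, TraesCS5D02G440000 averaged 16.7 ± 6.50 CPM in TAM 112 and 164.2 ± 57.8 CPM in TAM 111 (SD, n = 3 each), and TraesCS5B02G434100, named after its values were seen, averaged 44.2 ± 12.6 CPM in TAM 112 and 227.5 ± 58.3 CPM in TAM 111 but had 12 and 7 counts in replicates 1 and 2 of TAM 112 at 5 DAF. Its log2 fold change between the cultivars at 14 DAF was -2.36, and that of the member was -3.29. Not all partners went the way of their member. For TraesCS2B02G384600 (-1.16) the partners ran from -1.725 to 1.43. For TraesCS4A02G011600 (-0.91) they were at -0.97 and 0.45. These 2 members were also named after their values were seen.

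Of 34 transcription factors that the study names, 3 were members, the homeologs of TaDREB5, a factor of the AP2/EREBP family, whose DREB members are known to bind dehydration-responsive elements. TraesCS1A02G244800 had 5.64, 5.63 and 2.53 CPM in TAM 112, against 8.73, 10.1 and 14.1 CPM in TAM 111. TraesCS1B02G256000 had 6.96, 7.74 and 4.64 CPM in TAM 112 and 9.82, 11.3 and 17.8 CPM in TAM 111. TraesCS1D02G244500 had 6.25, 5.36 and 2.39 CPM in TAM 112 and 8.20, 8.94 and 14.7 CPM in TAM 111. In CPM with the TMM factors, all TAM 112 libraries lay below all TAM 111 libraries in each homeolog. Replicate 3 was lowest in TAM 112 and highest in TAM 111.

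The log2 fold changes were -1.25 ± 0.35, -1.01 ± 0.34 and -1.18 ± 0.40 on 1A, 1B and 1D (SE), and edgeR gave adjusted p = 0.02, 0.0405 and 0.0384, so none was called. The summed level of the homeologs in TPM, which carries no TMM factor, was 34.3, 31.0 and 14.9 in TAM 112 and 28.3, 28.8 and 49.5 in TAM 111. On that scale the cultivars overlapped, so the separation seen in CPM did not hold in summed TPM. TPM differs from CPM by its correction for length as well as by the scaling. Which of these made the overlap in summed TPM was not tested. As a share of all counts, without the factors, the cultivars overlapped on 1B and 1D but not on 1A. On 1D, TAM 112 replicate 1 had 265 of 35727948 counts, against 247 of 36014099 in TAM 111 replicate 2. On 1B, TAM 112 replicate 2 had 322 of 36351370 counts, against 280 of 33632653 in TAM 111 replicate 1. Of the 34 factors, the test called 6 lower and 1 higher in TAM 112, and 27 were not called. Of all genes tested, 7.45% were called lower and 7.02% higher. TraesCS7A02G336700, picked after its values were seen, had 29.85, 34.17 and 104.5 CPM in TAM 112 and 462.3, 638.3 and 451.0 CPM in TAM 111. The groups did not overlap, but it was not called (-3.20, edgeR adjusted p = 0.0711). The study reports this gene as differing between the cultivars. Why the calls differ was not tested. TraesCS2B02G119100 and TraesCS5B02G043100, not called, went the other way (1.08 and 0.96). The study chose the factors counted here on the same samples, by their number of links in gene networks and not by their level. It lists the TaDREB5 homeologs with more links in TAM 112 than in TAM 111, which is another measure than the levels given here.

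**Figure D5:**
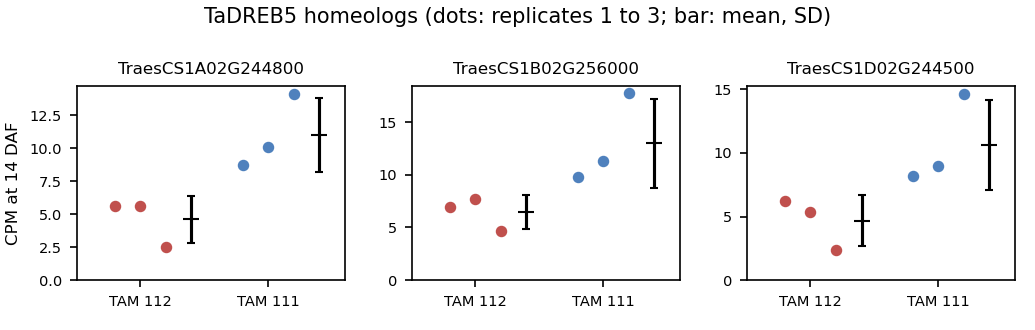
CPM at 14 DAF in each replicate (dots, replicates 1 to 3 from left to right) with the mean and SD (black bar) for the 3 TaDREB5 homeologs, TAM 112 in red and TAM 111 in blue, each panel on its own scale. Replicate 3 is the lowest of TAM 112, at 2.39 to 4.64 CPM, and the highest of TAM 111, at 14.1 to 17.8 CPM.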

How the data were processed

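Poly-A RNA of whole developing grains was sequenced in 12 libraries, 3 for each of 2 cultivars at 14 and 5 DAF, which GEO's labels write as DAP. The authors trimmed and mapped reads with HISAT2 and counted them per gene with featureCounts of Subread, and the deposited values are whole-number counts, not normalized. How strand and multiply matching reads were treated is not given in the sources used here. All columns of library values were used (0 left out).

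The fit used edgeR 4.0.16 in R 4.3.3 on all 12 libraries: TMM factors, genes kept by filterByExpr (65080, including all 164 members through their 14 DAF values), 1 coefficient per group, glmQLFit and glmQLFTest. Genes were called at an adjusted p under 0.01 (all genes tested) where the log2 fold change exceeded 1 in size. DESeq2 1.42.0 was an alternative. CPM used TMM-scaled library sizes, except for membership, which used column totals, and TPM was computed from counts and gene lengths. Tested on simulated data of 65080 genes for the cultivar comparison at 14 DAF, the fit called 63.5% of 200 genes changed 4-fold, with 96.2% of calls correct. The changed genes were drawn at random from all genes over 1 CPM. The members varied more between replicates than most genes, so these rates do not describe calls on members. The floor of 3 counts per library covers counting error only, and not all of it for members with 3 counts in a library.

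Named members were the 10 with the highest mean, up to 8 called in each direction with the largest change and no overlap, up to 4 from each of the 3 largest runs, and any the study names. The lower end of a top 200 could not be used with 164 members, so genes at the limits are given instead. Lists built on gene descriptions could not be applied. The members and lists were chosen with earlier results of these data known. Alternatives covered scaling, filters, thresholds, a replicate block, leaving out each library and the limits of membership.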

Additional observations from a re-analysis of the deposited data

How the results depend on the processing

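The number of members called at 14 DAF moved with the threshold and the tool. It was 87 at an adjusted p under 0.05, 13 with a fold threshold tested by glmTreat and 81 with DESeq2, where all genes called numbered 14455, 2279 and 12450. Leaving out 1 library in turn gave 24 to 54 members and 5104 to 10503 genes, with 0 members higher in each. The lowest totals over all genes were 5346 and 5104 without TAM 112 replicates 1 and 2, and 5242 and 5742 without TAM 111 replicates 2 and 3, all of 14 DAF. Of the 46 members, 19 were called lower in all 12 of these fits, and 146 members were negative in each. Both libraries of replicate 3 at 5 DAF were left out together as an alternative chosen after seeing the data, which gave 62 members. A fit with the replicate block called 48 members, 39 of the 46 and 9 others, and 8898 genes. Samples of the same replicate number in the 2 cultivars correlated at 0.11, -0.22 and -0.07 for replicates 1, 2 and 3 of 14 DAF. Not every sample there correlated best with its own number. At 5 DAF the correlations were 0.36, 0.34 and 0.53. So few pairs cannot show whether samples of a number shared a plot or batch. The limits set how many genes were members: 62 with no count allowed at 5 DAF, 323 with up to 10 counts, 256 at 0.5 CPM at 14 DAF and 110 at 2 CPM. Leaving out 1 library gave 165 to 223 genes, the most without TAM 112 replicate 3 of 14 DAF. Among the 28 named members no log2 fold change changed sign, and 11 of the 19 called ones were called under every alternative fit at the same threshold. Depth limits what can be said at 5 DAF, where up to 3 counts in 1 library are hard to tell from none. Some members had counts in most libraries of 5 DAF, however. TraesCS6D02G098600, picked after its values were seen, had 3, 3 and 3 counts in TAM 112 and 2, 0 and 1 in TAM 111.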

Other observations

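A member on 1D and a gene on 1A with equal internal exon lengths both had lower values in TAM 112. TraesCS1D02G114800, a member with 5 exons, averaged 1.84 ± 0.37 CPM in TAM 112 and 9.93 ± 0.20 CPM in TAM 111 at 14 DAF (SD, n = 3 each), a log2 fold change of -2.43. TraesCS1A02G113400, the gene on 1A, had 0 counts in the 3 TAM 112 libraries of 14 DAF and averaged 5.15 ± 1.42 CPM in TAM 111 (SD, n = 3). It missed the limits through TAM 112. Both genes were chosen after their values were seen, and whether the sequence of the 1A gene differs between the cultivars was not tested.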
